A study of Acropora tenuis with 242 samples.

Results

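Juveniles of the reef-building coral Acropora tenuis that had been offered the symbiont treatment SED were compared, within each cross, with juveniles offered C1, all kept at the Ambient temperature. All Ambient juvenile libraries labelled SED or C1 were taken, which gave 57 of the 242 libraries of the series, 28 of SED and 29 of C1. They came from 10 crosses of 5 Great Barrier Reef populations that carry the codes BK, CU, DR, LS and SB. The 5 between-population crosses were CUxDR, CUxSB, DRxCU, DRxSB and LSxCU, and the 5 within-population crosses were BKxBK, CUxCU, DRxDR, LSxLS and SBxSB. Each cross had 3 libraries per treatment, except 2 of SED in CUxSB and 2 of each treatment in LSxLS. The series also holds larvae of such crosses and juveniles under the symbiont treatments D1 and SS, or kept at the Hot temperature. The labels do not spell out SED, C1 or the other codes, nor do they say which algae an animal held when it was sampled. Ages and the number of animals in a library are not in the labels, and most crosses share a parent population with others, so crosses are not independent of each other. Separate cultures for the libraries of a group are not stated, so the p-values measure the spread between these libraries, which may be technical.

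Corals of this kind house photosynthetic algae of the family Symbiodiniaceae inside the cells of their gastrodermis. The larvae hold no algae at first, and the young coral takes them up from its surroundings early in life, from free algae in the water or in sediment. In the field, C1 is also the name of an algal type of the genus Cladocopium and D1 that of a type of the genus Durusdinium. Once taken up, algae pass photosynthetic products to the host and receive inorganic carbon and nitrogen in return, and host genes for recognition, nutrient transport and immunity are known to respond to the partnership. The deposited table gives its gene models as identifiers without gene names, so none of these functions could be looked up in the values below, and models are named by identifier only.

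Expression was measured by tag-based sequencing, in which a short piece of each transcript is read and counted per gene model. Totals ran from 160004 to 448569 counts in SED libraries (median 292326.5) and from 303370 to 577215 in C1 libraries (median 408772). SED libraries were thus shallower, and results that depend on depth are also given after every library had been thinned at random to 160004 counts. Each column name carries an index number from 46 to 158 in these libraries, whose meaning the labels do not give. In 8 crosses the mean index numbers of SED and C1 lay 34.7 to 36.7 apart, and in CUxCU and CUxSB they lay 5 and 8.5 apart. In every cross all SED libraries had higher index numbers than all C1 libraries. A difference between treatments and a difference along the index numbers thus cannot be told apart in any cross. CUxCU and CUxSB, where the distance was smaller, are given beside the others where it matters, but a smaller distance does not separate the 2 differences. The C1 libraries themselves were not alike along this numbering: in 10 of 10 crosses, the C1 library with the lowest index number was the one whose expression lay nearest SED, as described at the end. Results are therefore also given without these libraries.

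SED and C1 juveniles differed in a large share of their transcripts. In a test with terms for cross and symbiont treatment, fitted over the Ambient libraries of all 4 symbiont treatments, 2682 of 8954 gene models tested (30.0%) differed between SED and C1 (edgeR's quasi-likelihood test, Benjamini-Hochberg false discovery rate 0.05). Of these, 1227 were higher and 1455 lower in SED. Most of the differences were small: the median size was 0.42 on the log2 scale for models higher in SED and 0.51 for those lower in SED, while the median over all models tested was -0.0022. At least 2-fold differences were reached by 76 models higher and 191 lower in SED, at least 4-fold by 16 and 44, and at least 8-fold by 5 and 22. Large differences were thus mostly reductions in SED. The share called followed abundance, with 18.6% of the least abundant quartile of models and 45.9% of the most abundant quartile called. Models lower in SED were the more numerous in the other 3 quartiles, and in the most abundant quartile 535 were higher and 493 lower.

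The number of calls depended on which libraries entered the fit. After thinning, 1708 of 5594 models tested were called. Without the second library in accession order of every group 1621 were called and without the third 1541, whereas leaving out the first gave 2752. These fits tested 8987, 8662 and 9067 models in the same order. Among the Ambient juvenile libraries, 2 of D1 have index numbers in a late block far from the rest. A covariate for the index number gave 2604 calls of 10110 models tested over all Ambient juvenile libraries. Among the 117 libraries of the early block it gave 770 of 9034, 303 of them higher in SED. The early block without the covariate is not given here, so the part of the covariate in this lower number is not shown. With counts summed over crosses whose titles run together, 1766 of 10526 models tested were called, of which 1620 were among the 2682. Without the C1 library with the lowest index number in each cross, 3044 of 8965 models tested were called. That library was also the first C1 library in accession order in every cross. The fit with 2752 calls thus left out the same C1 libraries.

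The models named here are those with the largest difference in their weakest cross among the called models whose mean level was 5 log2 CPM or more (CPM, counts after every library was brought to an equal total). The same direction in all 10 crosses thus follows from this choice, which also favours models whose SED and C1 libraries do not overlap. The share of all tested models without overlap was not counted. Amillepora23389-RA was present in every SED library at a high level, with a lowest value of 628.7 CPM, a median of 977.6 and a highest of 1466. In C1 libraries the lowest was 0, the median 27.4 and the highest 272.8 CPM, with 2 of 29 libraries at 0. The groups did not overlap, and the lowest SED library was above every C1 library. The fitted difference was 4.09 on the log2 scale (SE 0.30, 17.1-fold, adjusted p = 9.33e-23 by edgeR), and SED was higher in 10 of 10 crosses. Its size rested on single C1 libraries: without the first library in accession order of every group it was 5.73, and without the lowest-index C1 library of each cross 5.69. Both fits left out the same C1 libraries, since the first C1 library of every cross also had its lowest index number. By cross, the difference between the means of log2 CPM (prior count 2) was smallest in DRxSB, at 4.12, and largest in LSxCU, at 5.79. In the crosses with little distance in index number it was 4.53 (CUxCU) and 4.84 (CUxSB), inside the range of the others. A large difference in these crosses too follows from how the models were chosen.

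Amillepora01102-RA had the same pattern. Its SED levels were 461.1 CPM at the lowest, 1165 at the median and 2112 at the highest, and its C1 levels were 2.55, 46.6 and 340.4 CPM. No C1 library reached the lowest SED library. The fitted log2 difference was 3.98 (SE 0.28, 15.7-fold, adjusted p = 9.62e-25 by edgeR). Without the lowest-index C1 libraries it was 4.91, and without the first library of every group, which leaves out the same C1 libraries, 4.88. The difference between the means of log2 CPM by cross was smallest in CUxCU, at 3.58, and largest in DRxCU, at 5.72, so its size varied between crosses while its direction was the same in 10 of 10. CUxCU, a cross with little distance in index number, thus lay below all other crosses, and CUxSB, the other such cross, had 4.48. In CUxCU the SED libraries averaged 1060 ± 400 CPM and the C1 libraries 99.1 ± 87.3 CPM (SD, n = 3 each).

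Amillepora04961-RA was nearly absent from SED juveniles. Its SED levels had a lowest value and a median of 0 and a highest of 15.1 CPM, with 19 of 28 libraries at 0, whereas its C1 levels were 76.8 CPM at the lowest, 229.3 at the median and 738.0 at the highest. The 28 SED libraries together held 18 counts of it and the 29 C1 libraries 3047. Per count sequenced it was thus 119.1 times as frequent in C1 (exact 95% interval 75.2 to 201.2, counting error only). The fitted log2 difference, which at such counts depends on the prior count, was -6.63 (SE 0.34, adjusted p = 9.29e-35 by edgeR). All SED libraries of BKxBK, CUxDR and LSxLS were at 0, where C1 averaged 306.6 ± 43.2, 172.7 ± 50.7 (SD, n = 3 each) and 232.3 ± 73.9 CPM (SD, n = 2). The highest SED mean was that of LSxCU, at 6.81 ± 7.66 CPM, against 180.4 ± 58.7 CPM in C1 of that cross (SD, n = 3 each).

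Amillepora24890-RA was also low in SED in 10 of 10 crosses, though seldom at 0. SED libraries had 0 CPM at the lowest, 22.2 at the median and 58.2 at the highest, with 1 library at 0, and C1 libraries had 178.0, 403.5 and 709.3 CPM. The groups did not overlap. The fitted log2 difference was -4.05 (SE 0.18, 16.6-fold, adjusted p = 4.72e-40 by edgeR). By cross the difference between the means of log2 CPM was -4.85 in SBxSB, the farthest from 0, and -3.41 in CUxSB, the nearest to it. CUxSB is a cross with little distance in index number, and CUxCU, the other, had -3.82. For Amillepora04961-RA the differences were -5.42 in CUxSB and -4.99 in CUxCU, inside the range of the other crosses. Taken within single crosses, Amillepora23389-RA and Amillepora01102-RA passed the test in 9 crosses each, and Amillepora04961-RA and Amillepora24890-RA in 10 each.

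**Figure D1:**
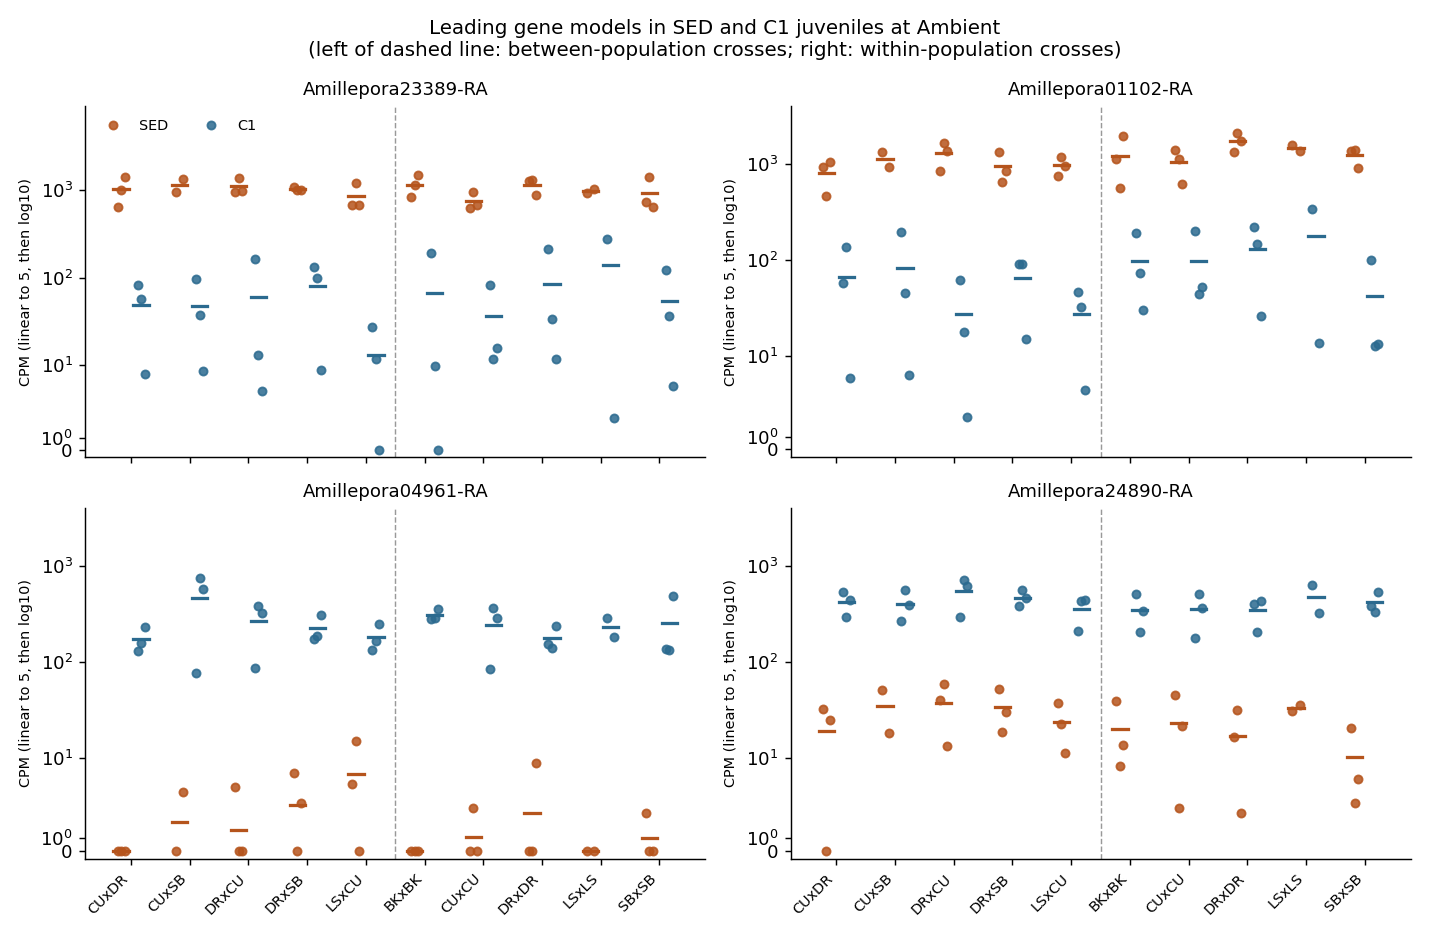
Levels in CPM (linear up to 5, then log10) of the 4 leading gene models in each library of the 10 crosses, SED left of C1 in each cross, with bars at the means. SED and C1 libraries did not overlap in any of the 4 models, which were chosen for a large difference in every cross. The C1 libraries of a cross spread widely in Amillepora23389-RA and Amillepora01102-RA.

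The other treatments put these models in different places. The median of Amillepora24890-RA was 395.6 CPM in D1 and 554.0 CPM in SS Ambient libraries, and that of Amillepora04961-RA was 130.1 and 136.2 CPM, so the SED median was the lowest of the 4 treatments for both. The C1 median was the lowest of the 4 for Amillepora23389-RA, with 318.4 CPM in D1 and 583.0 CPM in SS, and for Amillepora01102-RA, with 132.8 and 322.0 CPM. SED had the highest median in these last models. D1 and SS were not tested here against SED or C1.

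Tested within a single cross, with 2 or 3 libraries of each treatment, far fewer models passed. Among the between-population crosses, 56 of 8954 models (0.625%) were called in CUxDR, 10 higher and 46 lower in SED, and 49 (0.547%) in CUxSB, 19 higher and 30 lower. DRxCU had 95 (1.06%), of which 39 were higher and 56 lower, and DRxSB had 92 (1.03%), of which 26 were higher and 66 lower. In LSxCU 54 were called (0.603%), 24 higher and 30 lower. Models lower in SED were the more numerous in each of these crosses.

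Among the within-population crosses, 106 models (1.18%) were called in BKxBK, 31 higher and 75 lower in SED, and 24 (0.268%) in CUxCU, 5 higher and 19 lower. DRxDR had 55 (0.614%), of which 18 were higher and 37 lower, and LSxLS, with only 2 libraries of each treatment, had 14 (0.156%), 6 higher and 8 lower. SBxSB had the most of the 10 crosses, with 47 higher and 74 lower (1.35% in all). Models lower in SED outnumbered those higher in 10 of 10 crosses. After thinning to equal depth the counts ranged from 12 in LSxLS to 72 in SBxSB, with DRxCU next at 67 and BKxBK at 64, so the crosses with the fewest and the most calls were the same.

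**Figure D2:**
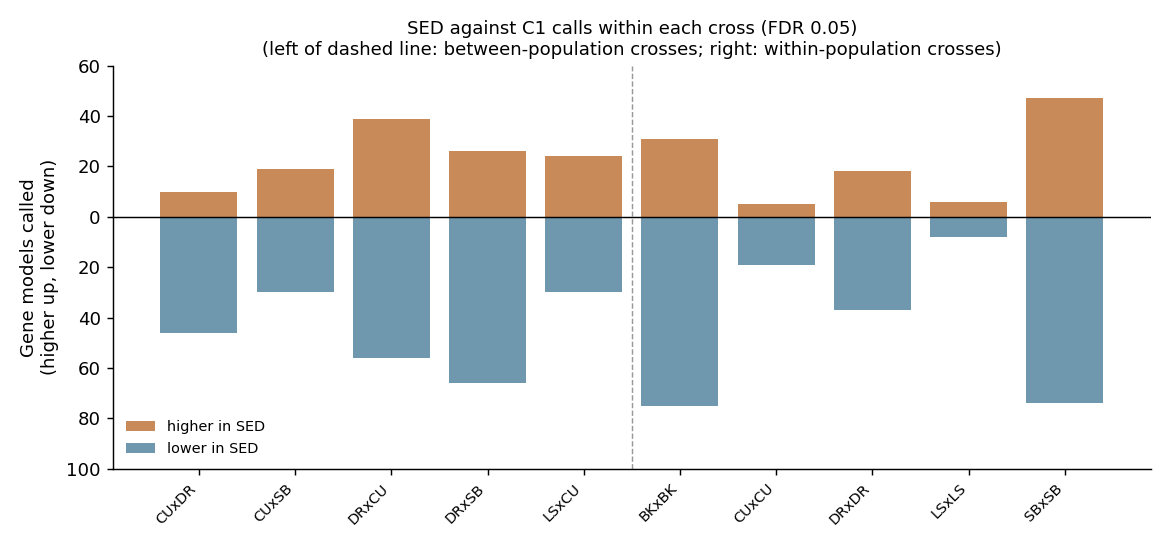
Number of gene models called within each cross (edgeR, false discovery rate 0.05), those higher in SED above the line and those lower in SED below it. SBxSB had the most calls, 47 higher and 74 lower in SED, and LSxLS, with 2 libraries per treatment, the fewest, 6 and 8.

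No model was called in opposite directions in different crosses. Of the 333 models called in at least 1 cross, 229 were called in 1 cross alone. Of the 333, 312 were also among the 2682 called over all crosses, which were 30.0% of the models tested. Both lists come from the same libraries, which favours this overlap from the start. At least 5 crosses shared the call of 36 models, 8 higher and 28 lower in SED. All 10 crosses called 7 models, 1 higher and 6 lower in SED. A model called in 1 cross alone is not thereby particular to that cross, because the difference between crosses was a test of its own.

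That test found no model whose difference between SED and C1 varied among the 10 crosses. Of 8954 models, 0 were called (0%; edgeR's quasi-likelihood test of the interaction of cross and symbiont treatment), and the smallest adjusted p was 0.956. At an unadjusted p under 0.05 there were 270 models, or 3.02%, and DESeq2's likelihood ratio test also called 0, with 260 at an unadjusted p under 0.05. Each cross and treatment had 2 or 3 libraries, and a p that misses the threshold does not show that the crosses were alike. Without a filter on low counts edgeR's test called 356 of 25095 models, of which 340 were among the models it did not call with the filter. This count thus depends on the filter.

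The size of the difference was then measured for each cross as a whole. For each cross in turn, models were called in a fit without that cross (2343 to 2598 models), and the difference between SED and C1 in the other 9 crosses gave the scale. On it, 0 is the mean of the C1 libraries of the cross and 1 the full difference seen in the other 9 crosses. Since models were selected in the other crosses, values somewhat below 1 arise from the selection itself. In the held-out cross, 80.3% (LSxLS) to 89.7% (BKxBK) of the models went in the direction of the other crosses, with a median of 86.1%.

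All 10 crosses moved along the shared scale by most of its length. Among the between-population crosses, the effect size was 1.033 ± 0.116 in DRxCU, 0.945 ± 0.064 in DRxSB, 0.880 ± 0.051 in LSxCU and 0.878 ± 0.137 in CUxDR (SD of 3 SED libraries each). CUxSB, with 2 SED libraries, had 0.832 ± 0.053. Among the within-population crosses it was 0.983 ± 0.082 in SBxSB, 0.983 ± 0.064 in BKxBK, 0.870 ± 0.106 in DRxDR and 0.744 ± 0.028 in CUxCU (3 SED libraries each), and 0.908 ± 0.059 in LSxLS (2 SED libraries). The lowest SED library of a cross lay above its highest C1 library in 10 of 10 crosses. CUxCU was the lowest and DRxCU the highest. With the spread of both treatments counted, the standard errors were 0.105 in CUxCU and 0.194 in DRxCU. Errors of this size are large beside the gap between even these extremes, so the order of the crosses is not resolved.

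**Figure D3:**
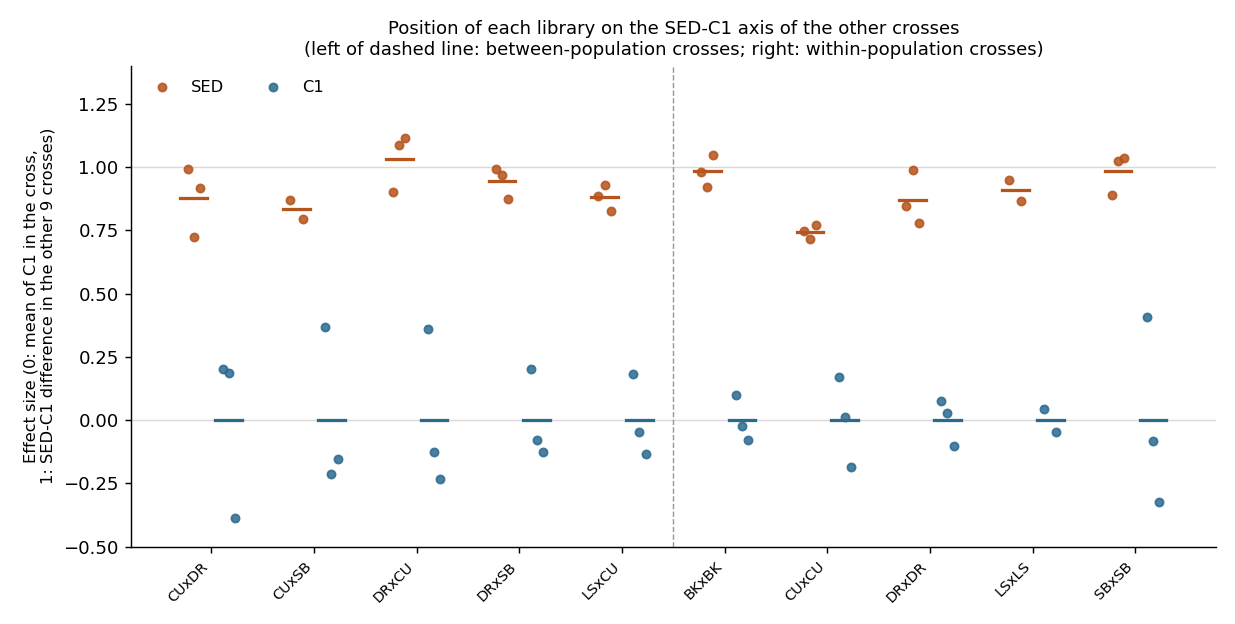
Position of each library on the scale of the other 9 crosses (0, mean of C1 in the cross; 1, difference between SED and C1 in the other crosses), SED left of C1 in each cross, with bars at the means. Every SED library of a cross lay above every C1 library of that cross, and CUxCU had the lowest mean, 0.744.

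CUxCU and CUxSB, the crosses whose SED and C1 libraries lay 5 and 8.5 index numbers apart, had the lowest effect sizes, 0.744 and 0.832, against 0.870 to 1.033 in the 8 crosses whose libraries lay farther apart. After thinning these crosses had 0.738 and 0.886 against 0.867 to 1.021, so that CUxSB then fell within the range of the 8. Without the lowest-index C1 library of each cross CUxCU had 0.738 and CUxSB 0.946, again within the range of the 8. The part of the index numbers in this order was not tested. CUxCU, the cross with the lowest value, had effect sizes of 0.753 from models higher in SED alone and 0.740 from models lower in SED alone, so both directions were low in it. CUxSB differed between them, with 0.940 from the higher and 0.776 from the lower models.

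Between-population crosses did not differ detectably from within-population crosses in the size of the effect. The mean effect size was 0.914 ± 0.078 in between-population crosses and 0.898 ± 0.098 in within-population crosses (SD, n = 5 each). The difference was 0.0162 with a 95% interval from -0.104 to 0.149 (two-sided exact permutation test over the crosses, p = 0.794, adjusted p = 0.825 over 3 measures). The smallest p this design can give is 0.00794. The interval spans 0, and the sign was not stable: the difference was -0.0221 without CUxCU and -0.0136 without DRxCU. Type and the order of libraries were also mixed, since titles run together within a type, apart from CUxCU and CUxSB.

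The number of calls and the direction of models did not separate the types beyond their spread either. Between-population crosses had 69.2 ± 22.4 calls each and within-population crosses 64 ± 47.9 (SD, n = 5 each; exact permutation p = 0.825, adjusted p = 0.825). Models went in the direction of the other crosses in 86.5 ± 1.96% of cases in between-population crosses and 84.5 ± 4.38% in within-population crosses (SD, n = 5 each; exact permutation p = 0.349, adjusted p = 0.825). The spread among the within-population crosses was the wider in all 3 measures, and the difference in spread was not tested.

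Single models were tested for a difference between cross types with counts summed per cross and treatment, so that the cross was the replicate. Of 12365 models 0 were called (0%; edgeR's quasi-likelihood test), with a smallest adjusted p of 0.309. At an unadjusted p under 0.05 there were 748 models, or 6.05%, by edgeR and 271 by DESeq2, which also called 0. Without the filter on low counts edgeR's test called 56 of 24188 models, of which 55 were among those not called with the filter.

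Among models averaging 5 log2 CPM or more, those with the smallest p in each direction are given as ones that did not pass. The smallest adjusted p over all models tested, 0.309, did not belong to them. Amillepora10740-RA had a log2 difference between SED and C1 of 0.37 ± 0.25 in between-population crosses, from 0.07 to 0.69, and of -0.41 ± 0.47 in within-population crosses, where the highest was 0.24 (SD, n = 5 each). The types overlapped through SBxSB, and the fitted difference between them was 0.77 (SE 0.19, adjusted p = 0.524 by edgeR). Amillepora21908-RA had -0.02 ± 0.64 in between-population crosses, from -1.04 to 0.67, and 1.02 ± 0.31 in within-population crosses, where the lowest was 0.74 (SD, n = 5 each). Its types did not overlap, with the highest between-population value that of DRxCU, and the fitted difference was -1.07 (SE 0.21, adjusted p = 0.405 by edgeR). Without the low-count filter the adjusted p values were 0.00964 and 1.63e-05.

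Pairs of crosses were also alike in their differences between SED and C1 model by model. Over the 6336 models averaging 5 log2 CPM or more, which are not independent of each other, the correlation of log2 differences ranged from 0.372 (CUxSB with DRxDR) to 0.593 (DRxSB with LSxCU) over the 45 pairs, with a median of 0.484. The median was 0.530 over the 10 pairs of between-population crosses, 0.472 over the 10 pairs of within-population crosses and 0.474 over the 25 mixed pairs. Sharing a parent population moved it little, with a median of 0.491 over the 19 pairs that share one and 0.473 over the 26 that share none. LSxLS and CUxCU had the lowest mean correlations with the other crosses, 0.440 and 0.442, and DRxSB the highest, 0.529. No library is shared between the crosses of a pair, but the index order runs alike in most crosses, and its part in these correlations was not tested.

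The models that differed held a considerable share of each transcriptome. Models called higher in SED in the other 9 crosses took 27.4 ± 1.39% of the counts in SED juveniles and 20.8 ± 1.58% in C1 juveniles of the held-out cross, and the SED share was the higher in 10 of 10 crosses. Models called lower in SED took 13.9 ± 0.53% of the counts in SED and 19.8 ± 0.83% in C1, with SED the higher in 0 of 10 crosses (SD over 10 cross means). These lists were chosen in the other crosses, and no test was made of the shares.

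**Figure D4:**
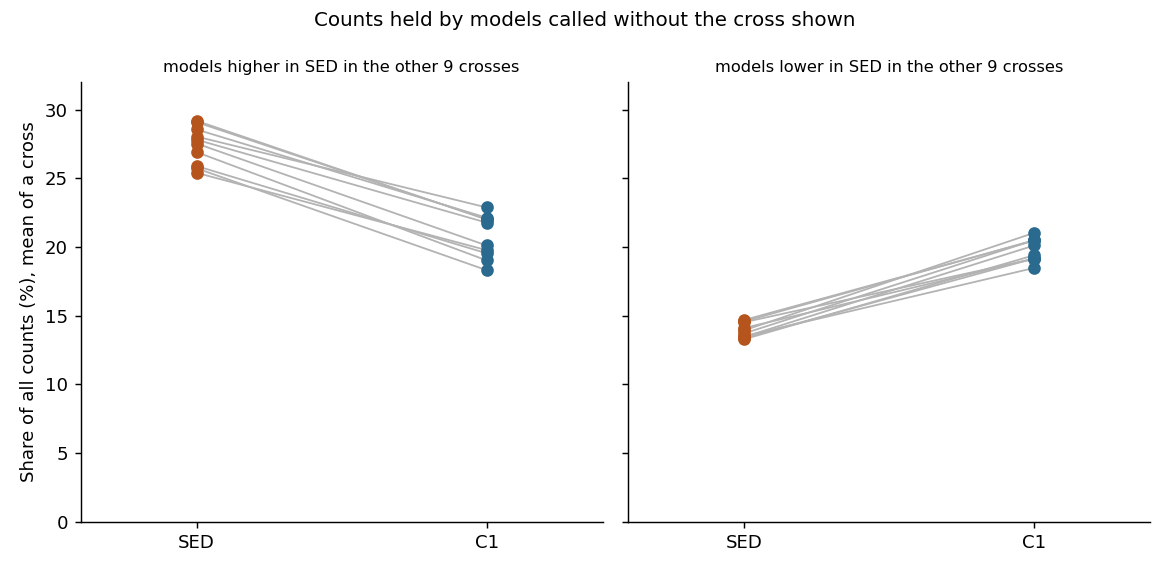
Share of all counts, in percent, held by models called higher in SED (left panel) or lower in SED (right panel) in a fit without the cross shown; each pair of points joined by a line is the SED and the C1 mean of 1 cross. Models higher in SED took more of the counts in SED than in C1 in 10 of 10 crosses, and models lower in SED took fewer.

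Transcript counts were more concentrated in SED. The 10 most abundant models of a library held 7.84 ± 0.54% of its counts in SED and 6.53 ± 0.39% in C1 (SD over 10 cross means), and the SED share was higher in 10 of 10 crosses (two-sided exact sign-flip permutation test over crosses, p = 0.00195, the smallest it can give; adjusted p = 0.00586 over 3 measures). Thinned to 160004 counts, SED libraries had a count for 12490 models on average (cross means 12313 to 12794) and C1 libraries for 12721 (12541 to 12843), a difference of -230.7 models with SED the higher in 2 of 10 crosses (exact permutation p = 0.0117, adjusted p = 0.0176). SED was the higher in CUxDR and CUxSB, the crosses with the deepest SED libraries, whose deposited totals averaged 363600 and 437083 counts in SED and 432321 and 429970 in C1. Both measures moved with deposited depth inside SED, and the share also inside C1. The shallowest library of a cross had the highest share in the 10 most abundant models in 7 of 10 crosses in SED and 7 of 10 in C1. It had the fewest models after thinning in 7 of 10 crosses in SED and 1 of 10 in C1. The part of depth in these differences between treatments was not tested. As deposited, where depth also differs, these numbers were 14144 in SED and 15265 in C1. The distance between libraries of a group, as the root mean square of their log2 differences, was 0.711 ± 0.030 in SED and 0.715 ± 0.046 in C1 after thinning (exact permutation p = 0.816, adjusted p = 0.816), so no difference in overall spread was detected. These measures were added after the data had been seen.

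Along the scale of the difference between treatments, by contrast, it was the C1 libraries that spread. The SD of the libraries of a cross ranged from 0.028 to 0.137 in SED, with a median of 0.064, against 0.064 to 0.372 in C1, with a median of 0.178. The C1 library with the lowest index number had the highest score of its cross in 10 of 10 crosses and in 9 of 10 after thinning, and the one with the highest index number had the lowest score in 9 of 10. The scores averaged 0.211 ± 0.127 for the lowest and -0.177 ± 0.109 for the highest index number (SD, n = 10 each). In SED the corresponding counts were 4 of 10 and 5 of 10 crosses, with means of 0.905 and 0.902. By depth, the shallowest SED library had the highest score of its cross in every cross except CUxDR and DRxSB, where it had the lowest. In DRxCU, the cross with the highest effect size, it scored 1.112 at 160004 counts, against 0.901 at 409705 counts in the deepest. After thinning, the effect size of DRxCU was 1.021. The part of depth in the SED scores was not tested. The C1 libraries with the lowest index numbers were also the shallower, with a mean total of 374493 counts against 455370 in those with the highest, and they were the deeper ones in 2 of 10 crosses. Depth was not separated from index number beyond the thinning. This order was found after the data had been seen, and no test was made of it.

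**Figure D5:**
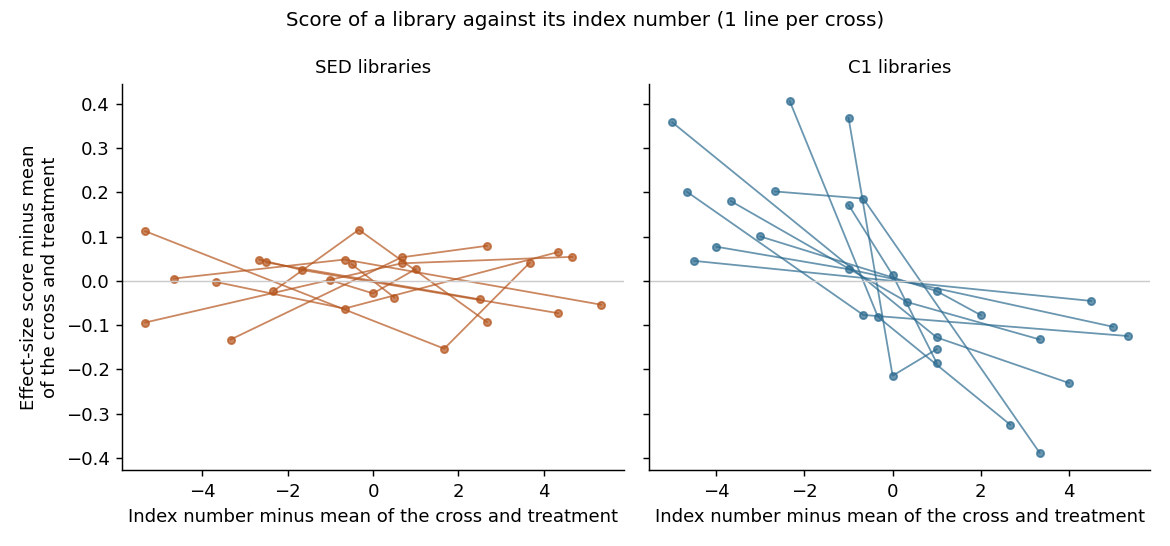
Effect-size score of each library minus the mean of its cross and treatment, against its index number minus the same mean, with 1 line per cross, SED in the left panel and C1 in the right. The lowest-index C1 library scored highest in 10 of 10 crosses, and the lowest-index SED library in 4 of 10.

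The leading models differed in how far they followed this order inside C1. Amillepora23389-RA averaged 137.1 ± 72.2 CPM in the C1 libraries with the lowest index number and 6.62 ± 5.01 CPM in those with the highest (SD, n = 10 each), and the lowest index number had the highest level in 10 of 10 crosses. Amillepora01102-RA averaged 151.1 ± 94.7 and 17.2 ± 15.5 CPM in the same libraries, with the lowest index number the highest in 9 of 10 crosses. In LSxLS, with 2 C1 libraries, its levels were 340.4 and 13.8 CPM. Amillepora04961-RA, which was lower in SED, averaged 153.6 ± 74.0 CPM at the lowest and 321.9 ± 120.3 CPM at the highest index number, the lowest being the lowest in 7 of 10 crosses. Amillepora24890-RA, also lower in SED, followed it least, with 377.9 ± 144.4 and 434.4 ± 89.9 CPM, the lowest index number being the lowest in 5 of 10 crosses and the highest in 3. No C1 library came within the range of SED for any of the 4 models, which were chosen for a large difference in every cross.

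The 4 leading models also passed the test in each fit that changed or left out these libraries. Without the C1 library with the lowest index number in each cross, the fitted log2 differences were 5.69 for Amillepora23389-RA, 4.91 for Amillepora01102-RA, -6.87 for Amillepora04961-RA and -4.09 for Amillepora24890-RA. With the index number as a covariate in the early block they were 3.90, 4.24, -6.86 and -3.60 in the same order of models, and with sums per title run 4.22, 3.86, -6.75 and -4.03. Effect sizes by cross ranged from 0.738 in CUxCU to 1.090 in SBxSB without the lowest-index C1 libraries. The between- minus within-population difference was then 0.0678 (exact permutation p = 0.357).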

How the data were processed

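Juvenile expression was deposited by the authors as raw counts in 1 table, with 25349 gene models in lines and a library in each column, of which 24188 had a count in the SED and C1 libraries. Per the labels' protocols, RNA came from the RNAqueous kit and was read by tag-seq; the submitters' processing notes name Bowtie2 2.2.9. The gene identifiers begin with Amillepora, which reads as the species Acropora millepora and not Acropora tenuis. The column names hold the words trim and host, which the labels do not explain. Beyond these names, the sources used here do not give the counting step, its strand setting, the reference and any removal of duplicates or algal reads. A model can therefore hold reads of near-identical copies. Total counts per library ran from 160004 to 577215 in SED and C1. Intervals from counts cover counting error only. Replicate libraries were compared by chi-square over models with at least 10 counts; the 54 pairs gave 2.22 to 6.18 per degree of freedom, so none was taken as a repeat.

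Counts were scaled by the trimmed mean of M-values and tested with edgeR 4.0.16 (filterByExpr, glmQLFit, glmQLFTest) in R 4.3.3, with cross and symbiont as terms over all Ambient juvenile libraries, with 1 term per combination for single crosses and their differences, and with 20 profiles summed per cross and treatment for cross types. Log2 CPM used a prior count of 2. The SE values of fitted differences are the size of the log2 difference divided by the square root of edgeR's F, and so are approximate. The 4 leading models are called models that average 5 log2 CPM or more. They are the 2 higher and 2 lower in SED whose smallest difference over the crosses is largest. For cross types, the model with the smallest p in each direction was taken, also among models averaging 5 log2 CPM or more. Lists of named functions were not used because the identifiers carry no names. Alternatives were DESeq2 1.42.0, its size factors, no filter, thinning, other samples, covariates and sums, and leaving out libraries or crosses. The steps were tried on simulated counts. For the tests between crosses and cross types, the differences set there were larger than most differences found here. The simulated effect size used only models that had been given a difference. How the steps perform at the sizes found here was thus not tested. The comparison, its tests and the lists were chosen with earlier results of these data known. The early-block covariate, the title-run sums, leaving out the lowest-index C1 libraries and, for the cross type difference in effect size, leaving out each cross were added after the data were seen.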

Additional observations from a re-analysis of the deposited data

How the results depend on the processing

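No paired analysis was possible because juvenile titles carry no replicate number that SED and C1 libraries share. In place of 2682 calls of 8954 models tested, alternatives gave 1708 of 5594 (thinned), 770 of 9034 (index covariate, early block) and 1766 of 10526 (title-run sums). Without replicate 1, 2 or 3 of each group they ran from 1541 of 8662 to 2752 of 9067. Other settings gave 2343 to 3044, among them 2752 by DESeq2 and 2679 of 25095 models tested without the low-count filter. Over all Ambient juvenile libraries the index covariate gave 2604 calls; there 2 late-block D1 libraries enter the slope. The 0 calls by cross and by cross type became 356 and 56 without the low-count filter, and were 0 in the other settings; the cause was not tested. The between- minus within-population difference of 0.0162 was -0.0221 without CUxCU and -0.0136 without DRxCU, ran from -0.00808 to 0.0475 without a replicate, and passed no test. For the 4 leading models, 96 of 96 alternatives kept direction and call, with adjusted p up to 2.27e-07; they were chosen for a large difference in every cross, which favours this. Effect sizes moved by over 1 SD in 17 of 100 alternatives; CUxCU was the lowest in each setting except without replicate 2, where CUxSB was, at 0.751. The highest was DRxCU except for CUxDR (1.056) without replicate 2, DRxSB (0.993) without replicate 3, and SBxSB for higher models alone (0.991) and without the lowest-index C1 libraries (1.090). Depth limits low models: thinning left 5594 models to test.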
